A study of Mus musculus with 8 samples.

Results

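The tumor necrosis factor (TNF) superfamily was followed in the adrenal medulla of mice one week after the induced loss of SdhD, the gene of the membrane anchor subunit D of succinate dehydrogenase. Members were the genes whose symbol starts with Tnfsf or Tnfrsf, together with Tnf, Lta, Ltb, Ltbr, Fas, Fasl, Cd40 and Cd40lg. This rule used no measured value and gave 39 genes (16 ligands and 23 receptors) of 22485 gene symbols on the array, on 76 of 33026 named spots. The symbol Tnfsfm13 stands for a read-through transcript of the neighboring genes Tnfsf12 and Tnfsf13.

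TNF superfamily ligands are mostly membrane proteins that act as trimers, on the cell surface or after shedding, and each binds 1 or several receptors of the TNF receptor superfamily. Receptors with a death domain can recruit adaptor proteins and caspases, receptors without one recruit TRAF adaptors and activate NF-κB, and decoy receptors bind a ligand without passing on a death signal. Most ligands are made by immune cells, while TNF receptor 1, encoded by Tnfrsf1a, is found on nearly all cells.

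All mice were males on a 129/SvJ background, received 100 µg/g tamoxifen intraperitoneally on each of 4 days from 9 weeks of age, and were killed 1 week after the first injection, at 10 weeks. SDHD-ESR mice carried 1 floxed and 1 null allele of SdhD and a Cre recombinase joined to part of the estrogen receptor, so that tamoxifen induced the deletion in many tissues at once. The +/- mice had the same SdhD alleles but no Cre, and +/+ mice had a floxed and an intact allele and no Cre, so that Cre itself differed between SDHD-ESR and the other groups. RNA of the medulla, cut away from the cortex, was pooled from 2 mice per array (4 arrays and 8 mice per group), labeled with Cy5, and compared on each array with Cy3-labeled RNA pooled from 8 +/+ mice. Every value is therefore a log2 ratio to the same +/+ pool, above 0 where the array held more of the RNA than the pool. A ratio shows no level, so that genes cannot be ranked by expression, and the marker genes of the tissue could not be checked for presence. Dyes were not swapped, hence a ratio to the pool keeps any dye bias, which cancels in SDHD-ESR minus +/-. In bulk tissue, fewer cells of a type cannot be told apart from less RNA per cell.

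Each of 2 slides carried 2 arrays of each group, with replicates 1 and 2 on slide 1 and replicates 3 and 4 on slide 2. The median ratio of an array ranged from -0.24 to 0.32, and the median difference between SDHD-ESR and +/- over 19322 genes was 0.22 on slide 1 and -0.33 on slide 2, so that a difference of a single gene has to be read against this shift. The array SDHD-ESR 1 was deposited with part of its grid out of place. Across spots, 45.1% of its lines, called aligned here, correlated with the other arrays (r = 0.42). A further 39.8%, called shifted, did so only after a move by 1 line (r = 0.44, against 0.02 in place), and 15% were mixed. Of the 76 member spots, 35 lay in aligned, 13 in mixed and 28 in shifted lines, and the value of SDHD-ESR 1 at a shifted spot belongs to another spot. Values are given as deposited. For members described one by one in shifted or mixed lines, the difference with the shifted lines moved back and the mixed lines left out is given too, other than for Tnfrsf1a and Tnfsf8, where it moved little. Sdhd itself, in an aligned line, was at -1.09 ± 0.84 (SD, n = 4) in +/- and -5.33 ± 0.60 (SD, n = 4) in SDHD-ESR, with no overlap.

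The upstream sequences of 4 genes are shown, 3 of them because they gave the smallest p of the members, as deposited or after the arrays were centred, and Ltb because it carries a match to the NF-κB consensus. RefSeq promoter windows (GRCm38.p6) were matched by symbol for 30 of the 39 genes, with 34 windows, and the 250 bases before the transcription start are printed from 5′ to 3′. Capitals mark a match to the NF-κB consensus, to GAAANNGAA (the repeat bound by interferon regulatory factors) or to the GC box GGGCGG, each searched on both strands.
Tnfrsf1a, chr6:125349473-125349722, + strand: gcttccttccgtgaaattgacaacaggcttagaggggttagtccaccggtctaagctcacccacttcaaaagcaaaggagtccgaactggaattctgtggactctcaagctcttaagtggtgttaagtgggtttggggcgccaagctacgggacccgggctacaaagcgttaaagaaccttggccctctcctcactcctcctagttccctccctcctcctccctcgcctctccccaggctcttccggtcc
Tnfsf10, chr3:27316827-27317076, + strand: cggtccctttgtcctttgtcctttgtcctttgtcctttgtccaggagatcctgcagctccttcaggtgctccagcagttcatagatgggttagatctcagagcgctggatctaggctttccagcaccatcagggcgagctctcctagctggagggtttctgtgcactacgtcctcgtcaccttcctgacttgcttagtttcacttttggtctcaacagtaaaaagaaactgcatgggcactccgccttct
Tnfrsf21, chr17:43016305-43016554, + strand: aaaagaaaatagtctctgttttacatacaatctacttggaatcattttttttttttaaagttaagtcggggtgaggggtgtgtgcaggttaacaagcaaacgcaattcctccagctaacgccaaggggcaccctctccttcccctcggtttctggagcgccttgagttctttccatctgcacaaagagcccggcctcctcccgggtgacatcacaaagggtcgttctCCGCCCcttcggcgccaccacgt
Ltb, chr17:35194257-35194506, + strand: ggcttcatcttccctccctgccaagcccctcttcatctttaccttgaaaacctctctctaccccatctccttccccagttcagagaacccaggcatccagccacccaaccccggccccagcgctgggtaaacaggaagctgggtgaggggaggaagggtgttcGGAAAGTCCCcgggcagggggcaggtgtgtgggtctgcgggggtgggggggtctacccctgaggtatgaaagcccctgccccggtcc
The windows of Tnfrsf1a and Tnfsf10 held none of the 3 motifs, that of Tnfrsf21 held 1 GC box, and that of Ltb held 1 NF-κB match. Over the members, 3 of 34 windows matched the NF-κB consensus (Ltb, Tnfrsf8 and Tnfrsf9), against 3.9% of all 32851 windows. GAAANNGAA was found in 6 member windows (Tnfsf8, Tnfsf13b, Tnfrsf1b, Tnfrsf4, Tnfrsf14 and Tnfrsf17), against 7.13% of all windows, and GGGCGG in 15, against 32.7%. A match is a description of these letters only.

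Before the comparison of the groups, the genes with many spots showed how well a member was measured. Tnfrsf1a (NM_011609) had 11 spots, and 10 of them agreed closely. Over these 10 spots the median log2 ratio was 0.14, 0.35, 0.47 and 0.74 on +/- 1 to 4, and the SD between spots was 0.041 to 0.092 on the 7 arrays other than SDHD-ESR 1. The scatter of this receptor within an array was thus much smaller than its differences between arrays. On SDHD-ESR 1 the 5 aligned spots among them read between 1.27 and 1.37, while the 3 shifted spots read -3.71, -0.80 and 0.70. Once moved back by 1 line, the same 3 spots read between 1.21 and 1.43. The remaining spot, also in an aligned line, read below the median of the others on every array, between -0.06 and 1.07.

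The spots of the classic cytokines did not agree in this way. Tnf (NM_013693), which is made mainly by macrophages, also had 10 spots. Their SD within an array was 0.32 to 1.61 (median 0.81), and on SDHD-ESR 4 they spread from -3.66 to 2.08. Lta (NM_010735), the lymphotoxin α of lymphocytes, had 10 spots with an SD within an array of 0.44 to 1.72 (median 1.19). Spots of 1 cytokine gene thus differed within an array by more than the groups differed in the median, and for genes with several spots the median over the tested spots of each array is used below.

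**Figure D1:**
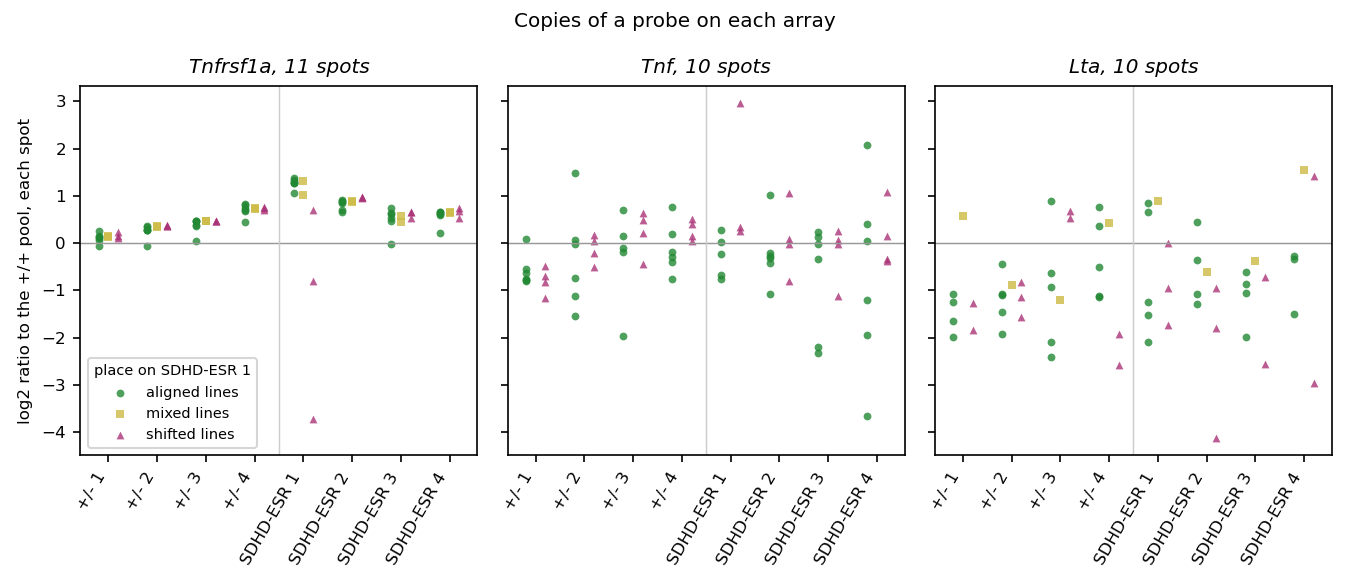
Log2 ratio to the +/+ pool of each spot of Tnfrsf1a, Tnf and Lta on the 4 +/- and the 4 SDHD-ESR arrays. Points are spots, colored by their place in the grid of SDHD-ESR 1. On the 7 arrays other than SDHD-ESR 1, 10 of the 11 spots of Tnfrsf1a lie close together and 1 aligned spot below them, and on SDHD-ESR 1 the shifted spots stand apart (-3.71, -0.80 and 0.70), while those of Tnf and Lta scatter on all arrays.

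Of the 76 spots, 67 had at least 3 ratios in each group and were tested (34 genes), and 549 of 608 possible ratios were listed. The 5 genes without a tested spot were all ligands. Cd40lg, the CD40 ligand of helper T cells, had 5 ratios, which were -0.80, -0.50 and -0.72 in +/- and 0.10 (mixed line) and -3.10 in SDHD-ESR. Fasl, the ligand of the Fas death receptor, was listed on 3 arrays only, with -0.93 on +/- 2, -1.73 on +/- 4 and 0.06 (shifted line) on SDHD-ESR 1. Tnfsf11 (RANKL, which drives osteoclast formation) had a ratio only in a shifted line of SDHD-ESR 1, and Tnfsf4 (OX40 ligand) only on +/- 1. Tnfsf18 (GITR ligand) had 5 ratios, between -1.30 and 1.83. The ratios of these ligands were too few for a comparison.

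In SDHD-ESR minus +/-, no member spot passed an adjusted p of 0.05 (smallest adjusted p = 0.953 from limma), as for 0% of all 28073 tested spots. Sdhd itself, with a difference of -4.23, did not pass either (adjusted p = 0.22 from limma). The threshold thus missed even the deleted gene, and the lack of calls among the members does not show that they were unchanged. At an unadjusted p of 0.05, 2 of the 67 member spots (2.99%) were lower in SDHD-ESR, Tnfsf10 and Tnfrsf21, and 0 were higher. Over all tested spots 2.80% were lower and 1.81% higher at this threshold, so that the share of the members was near the background. Of 55 member spots with a value on all arrays, 0 were lower and 1 (a spot of Tnfrsf19) was higher in every SDHD-ESR array than in every +/- array, where the background was 1.33% and 0.965%. With 4 against 4 arrays, the exact permutation test used for single genes, which is two-sided, cannot give a p below 0.0286. It regroups the arrays freely over both slides, so that its p does not take the slide into account.

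Tnfrsf1a, the gene of TNF receptor 1, was measured by the most spots. As the median over its 11 spots, the log2 ratio was 0.13, 0.34, 0.47 and 0.74 on +/- 1 to 4, and 1.27, 0.89, 0.58 and 0.64 on SDHD-ESR 1 to 4. All arrays were above the pool, and +/- 4 lay within the range of the SDHD-ESR arrays, so that the groups overlapped. The means were 0.42 ± 0.25 in +/- and 0.84 ± 0.31 in SDHD-ESR (SD, n = 4 each), which differ by 0.43 (exact permutation test, p = 0.0857). It was 0.84 on slide 1 and 0.01 on slide 2, and 0.28 without SDHD-ESR 1 (exact p = 0.171). With the median of each array set to 0 (centring), +/- was 0.33, 0.40, 0.23 and 0.38 and SDHD-ESR 1.27, 0.73, 0.69 and 0.59, which did not overlap (difference 0.48, exact p = 0.0286). After centring, 8 of the 11 spots passed an unadjusted p of 0.05, and the smallest adjusted p was 0.808 in limma.

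The centred values change the count for the family mainly through this 1 gene. After centring, 12 of 67 member spots (17.9%) passed an unadjusted p of 0.05, 8 of them spots of Tnfrsf1a, against 5.95% of all spots. With the shifted lines of SDHD-ESR 1 moved back instead, 5 of 66 member spots (7.58%) did so, 3 of them of Tnfrsf1a, against 5.29% of all spots. Spots of 1 gene share their RNA and are not independent of each other.

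Among the ligands, Tnfsf10 (NM_009425), which encodes the interferon-inducible death ligand TRAIL, had the smallest p. Its log2 ratio, from 1 spot in an aligned line, was 0.36, 0.06, 0.40 and 0.48 on +/- 1 to 4 and -0.98, 0.37, -0.45 and -0.81 on SDHD-ESR 1 to 4. All +/- arrays were above the pool and 3 of 4 SDHD-ESR arrays below it, with SDHD-ESR 2 inside the range of +/-. The difference was -0.79 (SE 0.30, limma p = 0.031, adjusted p = 0.953, exact permutation p = 0.0857). It was negative on both slides, with -0.51 on slide 1 and -1.07 on slide 2. Without SDHD-ESR 1 it was -0.62, and without SDHD-ESR 2 it was -1.07.

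The receptors of TRAIL in the mouse did not show a difference of this kind. Tnfrsf10b, the death receptor that binds TRAIL, was 0.73, 1.03, 0.60 and 0.79 in +/- and 1.16, 1.51, 0.44 and 0.74 in SDHD-ESR. It was above the pool on all 8 arrays, with means of 0.79 ± 0.18 and 0.96 ± 0.47 (SD, n = 4 each) and overlapping groups (difference 0.18, exact p = 0.543). The decoy receptors Tnfrsf22 and Tnfrsf23 differed by -0.09 and -0.17 (-0.07 and -0.13 with lines moved back), and Tnfrsf26, the receptor gene next to them, by 0.63 with a low value of -2.52 on +/- 4. Without that array Tnfrsf26 differed by -0.01, and without the mixed-line value of SDHD-ESR 1 by 0.47.

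Tnfrsf21 (NM_178589), the death receptor 6, was the other member at an unadjusted p of 0.05. Its log2 ratio was -0.11, 0.16, 0.70 and 0.57 on +/- 1 to 4 and -0.14, -0.21, -1.02 and 0.02 on SDHD-ESR 1 to 4, from 1 spot in a shifted line. Only +/- 1 reached into the range of SDHD-ESR. The difference was -0.67 (SE 0.28, limma p = 0.048, adjusted p = 0.953, exact permutation p = 0.0571). SDHD-ESR 1 read -1.16 with its lines moved back, and the difference was then -0.92. Without SDHD-ESR 3 it was -0.44. After centring the groups did not overlap (difference -0.61, exact p = 0.0286), and the difference was -0.20 on slide 1 and -1.14 on slide 2 as deposited.

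**Figure D2:**
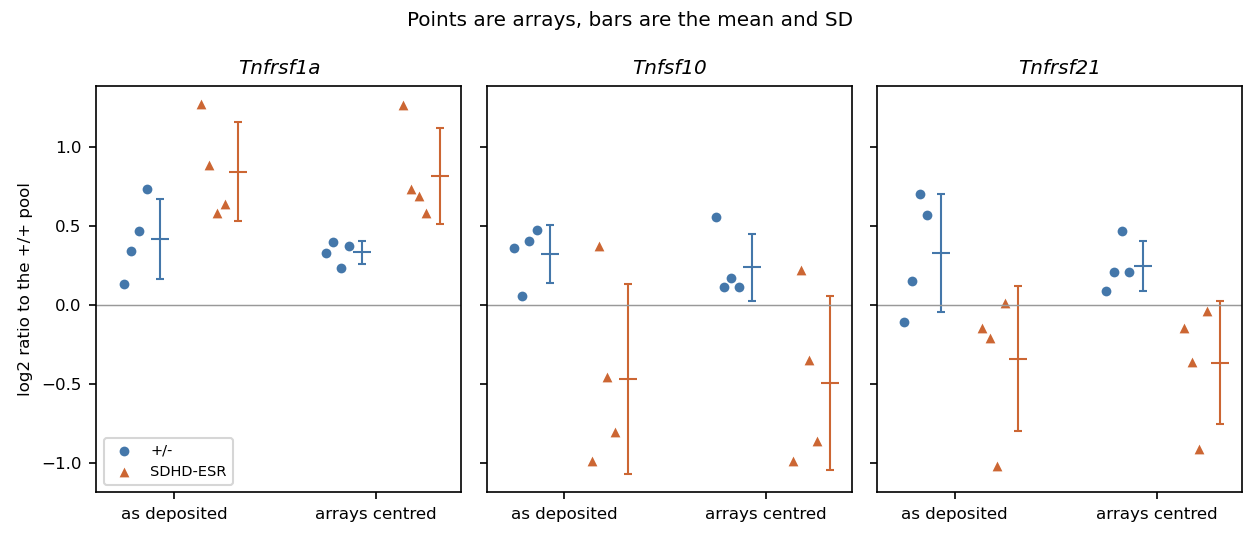
Log2 ratio to the +/+ pool of Tnfrsf1a, Tnfsf10 and Tnfrsf21 in 4 +/- and 4 SDHD-ESR arrays, as deposited and with each array centred on its median. Points are arrays, and bars give the mean and SD. After centring, all SDHD-ESR arrays lie above all +/- arrays for Tnfrsf1a and below them for Tnfrsf21, while for Tnfsf10 the array SDHD-ESR 2 (0.37 as deposited) lies among the +/- arrays.

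The medians of Tnf and Lta over their spots differed little between the groups. Their single spots differed by -1.83 to 0.81 for Tnf and by -0.98 to 1.11 for Lta. The small medians therefore do not show that these genes were unchanged. Tnf was -0.72, -0.12, 0.15 and 0.10 in +/- and 0.14, -0.24, -0.02 and -0.14 in SDHD-ESR (difference 0.08, exact p = 0.83, and -0.01 with lines moved back), with 4 of its 10 spots lower and 6 higher. Lta was -1.45, -1.10, -0.05 and -0.51 in +/- and -0.94, -0.95, -0.86 and -0.30 in SDHD-ESR (difference 0.01, exact p = 1, and 0.26 with lines moved back). Both groups were below the pool on every array for Lta, with an overlap of the groups. Ltb, which anchors lymphotoxin on the lymphocyte surface, was -0.34, 0.30, 0.13 and 0.26 in +/- and -1.19, 0.74, -0.45 and -0.81 in SDHD-ESR. The SDHD-ESR arrays of Ltb included both the lowest and the highest value, and the difference was -0.51 (exact p = 0.286), with -0.26 without SDHD-ESR 1 and -0.90 without SDHD-ESR 2. Tnfsf13b (BAFF), a survival factor of B cells, differed by -0.06 (exact p = 0.83).

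The remaining ligands gave differences between -0.85 and 0.08. Tnfsf15 (TL1A) was -0.33, -0.29, -0.01 and -0.11 in +/- and -0.54, -0.24, -0.68 and -0.70 in SDHD-ESR, below the pool on all arrays (difference -0.36, exact p = 0.0857, shifted line). Moved back, SDHD-ESR 1 read -0.06, and the difference was -0.24 (exact p = 0.286). Tnfsf9 (4-1BB ligand) was -0.04, 0.03, -0.75 and -0.37 in +/- and -2.66, -0.67 and -0.07 in SDHD-ESR, with no ratio on SDHD-ESR 3. The low value of SDHD-ESR 1 was in a shifted line and became -0.39 when moved back, which changed the difference from -0.85 to -0.10 (-1.39 without SDHD-ESR 4). Tnfsf8 (CD30 ligand) differed by -0.42 through -3.88 on SDHD-ESR 4 alone, and by 0.47 without that array. Over the 11 measured ligands, 8 were lower and 3 higher, with a median difference of -0.21, where the median of all genes was -0.05 and 57.4% of them were lower.

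Among the other death domain receptors, Fas, which triggers apoptosis when bound by its ligand, was -0.21, -0.04, 0.75 and 0.66 in +/- and 0.65, 0.20, -0.13 and -0.02 in SDHD-ESR. Its difference had opposite signs on the slides, 0.55 on slide 1 and -0.78 on slide 2 (together -0.11, exact p = 0.8). Its spot lay in a mixed line, and without the value of SDHD-ESR 1 the difference was -0.27. Tnfrsf25 (death receptor 3, the receptor of TL1A) was 0.49, 0.48, 0.72 and 0.07 in +/- and -0.25, 0.40, -0.28 and 0.13 in SDHD-ESR. The difference was negative on both slides, with -0.41 and -0.48 (together -0.44, exact p = 0.0857), and its groups overlapped. Its spot lay in a shifted line, and the difference was -0.59 when moved back (exact p = 0.0857). Of the 5 receptors with a death domain, 3 were lower and 2 higher, with a median difference of -0.11.

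The receptors that bind TRAF adaptors without a death domain also had differences of both signs. Tnfrsf1b, TNF receptor 2 of leukocytes and endothelium, was -1.31, 0.19, 0.62 and -0.09 in +/- and -0.88, -0.24, -1.32 and -0.38 in SDHD-ESR (difference -0.56, exact p = 0.286). Its difference was -0.94 without +/- 1, -0.30 without +/- 3 and -0.35 without SDHD-ESR 3. Cd40, the receptor of antigen-presenting cells, was -0.74, -0.64, 0.46 and 0.14 in +/- and -1.96, -0.17, -0.59 and -0.44 in SDHD-ESR (difference -0.59, exact p = 0.343). All SDHD-ESR arrays were below the pool for both genes, within overlapping groups, and Cd40 differed by -0.20 without SDHD-ESR 1 and by -0.37 without +/- 3. Ltbr, the lymphotoxin β receptor of stromal cells, was above the pool on all 8 arrays and did not differ by more than its spread (0.38 ± 0.26 against 0.36 ± 0.19, SD, n = 4 each, exact p = 0.914).

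Tnfrsf13c, the BAFF receptor, was -0.16, -0.19, -0.54 and -1.22 in +/- and 0.20, -0.20, 0.37 and -0.14 in SDHD-ESR (difference 0.58, exact p = 0.0857, and 0.35 without +/- 4). Tnfrsf8 (CD30) was -1.43, -1.15, -0.88 and -0.85 in +/- and -0.85, -1.27, -0.25 and 0.22 in SDHD-ESR, a difference of 0.54 (exact p = 0.229, and 0.29 without SDHD-ESR 4). The groups overlapped for both genes. Tnfrsf18 (GITR of regulatory T cells) was -0.23, -1.15, -0.17 and -0.17 in +/- and -0.01, -1.57 and -2.23 in SDHD-ESR, with no ratio on SDHD-ESR 1. The difference of -0.84 (exact p = 0.257) again came from slide 2 (-1.73), while slide 1 gave 0.68. It was -1.47 without SDHD-ESR 2 and -0.36 without SDHD-ESR 4. Of the 14 receptors of this class 8 were lower and 6 higher, with a median difference of -0.05.

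Tnfrsf19 and Tnfrsf9 had 2 spots each, which went in opposite directions. For Tnfrsf19 (TROY), the aligned spot was -0.53, -0.01, -0.34 and -0.02 in +/- and 0.01, 0.36, 0.04 and 0.13 in SDHD-ESR, without overlap (difference 0.36, adjusted p = 0.953 from limma, exact permutation p = 0.0286). The shifted spot gave a difference of -0.82, through -2.63 on SDHD-ESR 1, and the median over both spots moved from -0.23 to 0.14 when the lines were moved back. For Tnfrsf9 (4-1BB), 1 spot was -0.21, -0.57, -0.12 and -0.16 in +/- and 0.08, 0.07 and 0.11 in SDHD-ESR, without overlap but with no ratio on SDHD-ESR 1. The other spot was 0.21, 0.99, 0.90 and 0.82 in +/- and 0.56, 0.87, 0.23 and 0.72 in SDHD-ESR, where the groups overlapped.

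Tnfrsf11b, which encodes the soluble RANKL decoy osteoprotegerin, was 0.28, -0.75, 0.53 and 0.97 in +/- and 2.63, 0.07, -0.37 and -0.14 in SDHD-ESR. The high value of SDHD-ESR 1 lay in a shifted line and was -0.03 when moved back, and the difference changed from 0.29 to -0.37. Tnfrsf12a, the TWEAK receptor Fn14, was 1.55 on SDHD-ESR 1, in an aligned line, and between -0.62 and 0.40 on all other arrays. Without SDHD-ESR 1 it differed by -0.09 (0.32 with it). The other members not described one by one, Tnfsf12, Tnfsf14, Tnfsfm13, Tnfrsf4, Tnfrsf11a, Tnfrsf13b, Tnfrsf14 and Tnfrsf17, differed by -0.31 to 0.08 within overlapping groups as deposited. With lines moved back they ranged from -0.34 (Tnfsf12) to 0.38 (Tnfrsf17, with 2 SDHD-ESR values left), and Tnfrsf11a changed from -0.22 to 0.03. As deposited, the 2 spots of Tnfrsf13b (-0.43 and 0.29), Tnfrsf14 (-0.32 and 0.43) and Tnfsf12 (-0.44 and 0.02) differed in opposite directions.

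**Figure D3:**
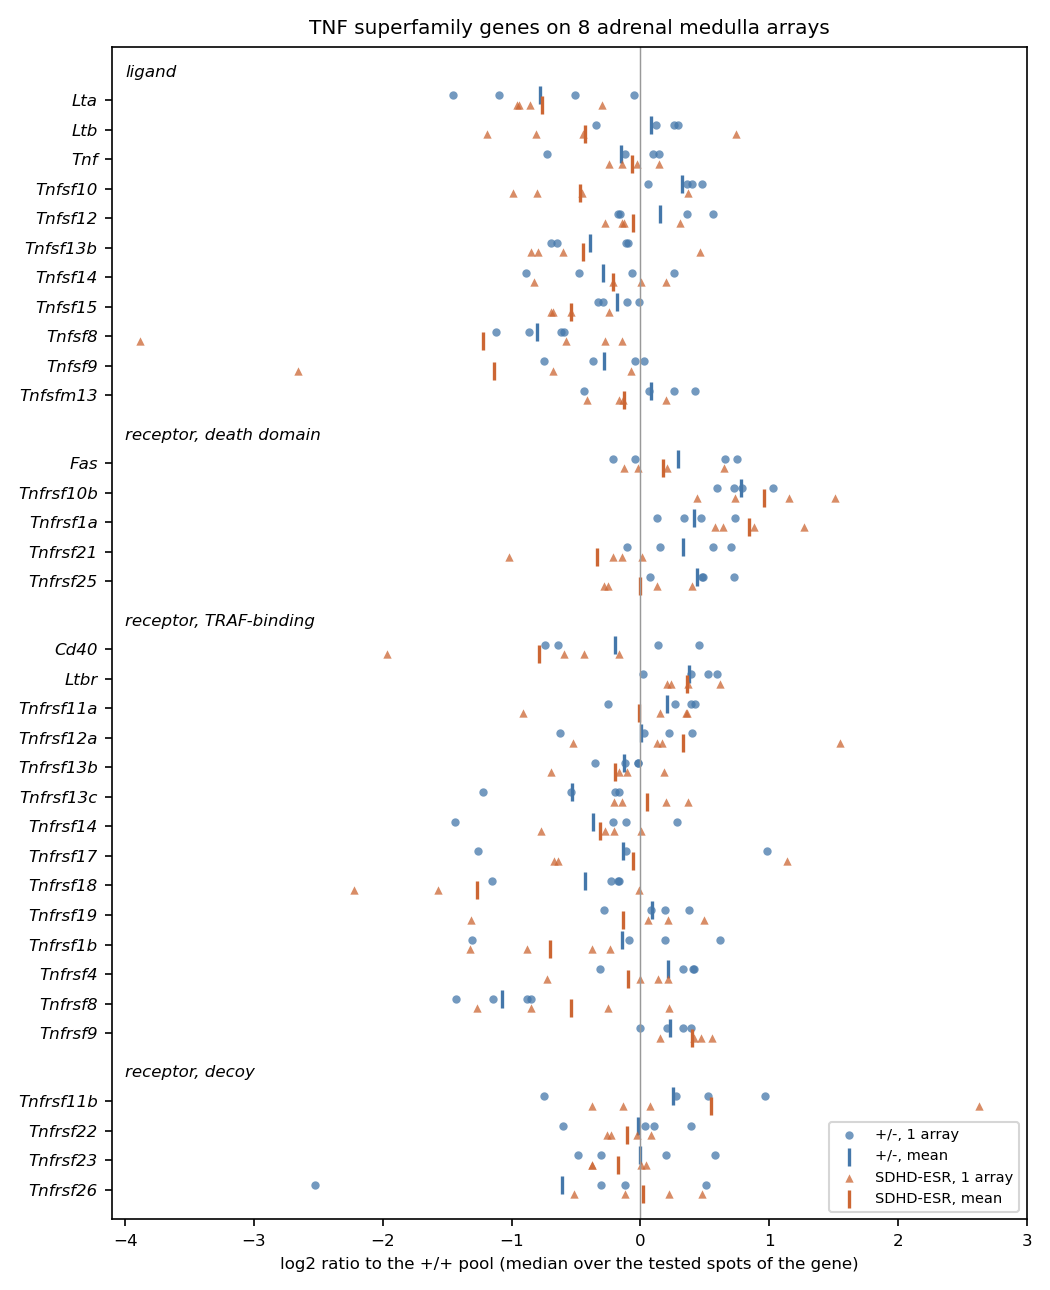
Log2 ratio to the +/+ pool of the 34 measured TNF superfamily genes, as the median over the tested spots of a gene. Circles are +/- arrays, triangles SDHD-ESR arrays, and vertical ticks the means. Tnfrsf1a, Tnfrsf10b and Ltbr lie above 0 on all 8 arrays, Lta, Tnfsf8 and Tnfsf15 below 0, and the groups overlap in all genes shown.

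**Figure D4:**
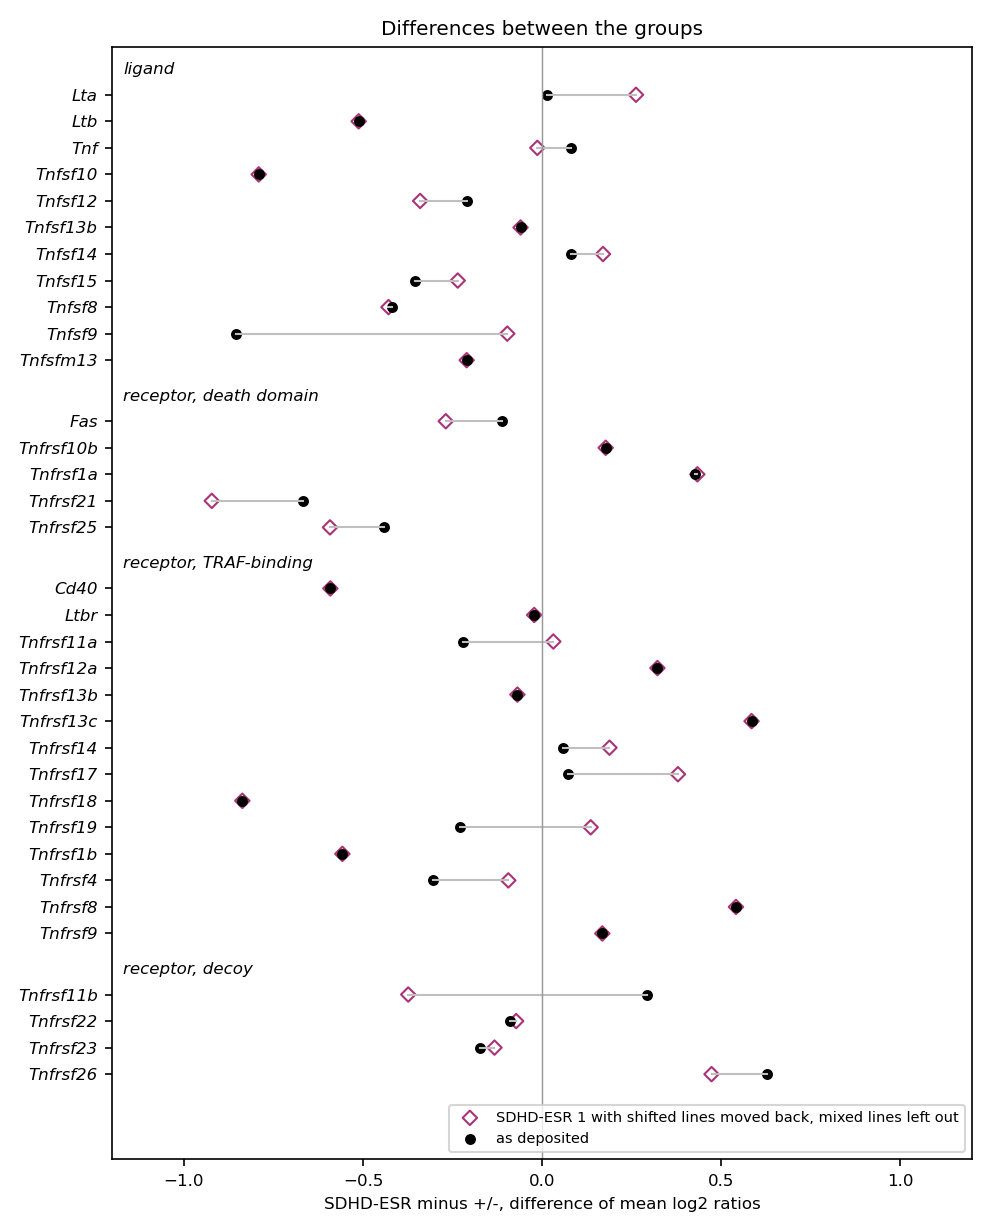
Difference of the mean log2 ratios, SDHD-ESR minus +/-, of the same genes. Filled points give the values as deposited and open diamonds those with the shifted lines of SDHD-ESR 1 moved back and its mixed lines left out. Tnfsf9 moves from -0.85 to -0.10 and Tnfrsf11b from 0.29 to -0.37, whereas Tnfsf10 stays at -0.79.

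Against the +/+ pool, each group was tested by its mean ratio against 0, in which the pool is 1 control sample and the spread among +/+ mice is left out. No member spot passed an adjusted p of 0.05 in SDHD-ESR (smallest adjusted p = 0.101 from limma) or in +/- (0.124), where 0.0427% and 0% of all spots passed. At an unadjusted p of 0.05, 20 of 67 member spots (29.9%) passed in SDHD-ESR, 12 higher and 8 lower than the pool, against 17.4% of all spots. In +/-, 20 member spots passed as well, 13 higher and 7 lower, against 19.0% of all spots. Spots of Tnfrsf1a made up 9 of the 20 in SDHD-ESR and 8 in +/-, and the spots came from 10 genes in each group.

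Higher than the pool in both groups at this unadjusted threshold were Tnfrsf1a, Tnfrsf10b, Ltbr and 1 spot of Tnfrsf9. Lower in both groups were 1 spot of Lta (-1.38 in SDHD-ESR and -1.19 in +/-) and 1 spot of Tnf (-0.82 and -0.86). Other spots of Tnf passed in 1 group only. Of these, 1 was higher in +/- (0.62, with 0.16 in SDHD-ESR) and 1 lower in SDHD-ESR (-2.10, with -0.27 in +/-). Tnfrsf10b gave an adjusted p of 0.112 in SDHD-ESR and 0.124 in +/- (limma). Tnfrsf8 had the lowest mean ratio in +/- (-1.08 ± 0.27, SD, n = 4, adjusted p = 0.124 from limma) and was at -0.54 ± 0.65 (SD, n = 4) in SDHD-ESR. Tnfsf15 was at -0.54 ± 0.21 (SD, n = 4) in SDHD-ESR (adjusted p = 0.117 from limma) and -0.18 ± 0.15 (SD, n = 4) in +/-. These calls did depend on the scale of the arrays. After centring, 7 member spots passed an adjusted p of 0.05 in SDHD-ESR against the pool, all of them spots of Tnfrsf1a (smallest adjusted p = 0.037), where 0.826% of all spots passed. With centring and the shifted lines of SDHD-ESR 1 moved back, the same test was passed by 13 member spots, where 1460 of all 27734 tested spots passed. Of the 13, 10 were spots of Tnfrsf1a, 1 was of Tnfrsf10b (adjusted p = 0.033) and 1 of Tnfrsf9 (adjusted p = 0.044), all higher than the pool. The last was a spot of Lta, lower than the pool (adjusted p = 0.042).

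The genes that work downstream of the receptors lay on both sides of 0, and 1 of them passed an unadjusted p of 0.05 among the signaling genes and 0 among those of NF-κB. Of all 19322 genes, 670 passed as lower and 465 as higher on at least 1 spot. Of 32 measured adaptors, kinases and inhibitors of TNF signaling, 22 had a lower and 10 a higher mean in SDHD-ESR, with a median difference of -0.12 as deposited and 0.01 with the shifted lines moved back. Traf5, a TRAF adaptor of lymphocyte receptors, was the gene that passed. It was 0.69, -0.06, 0.51 and 0.24 in +/- and -0.05, -0.10, -0.54 and -0.50 in SDHD-ESR, from a shifted line (difference -0.64, SE 0.21, adjusted p = 0.953 from limma). Of 8 NF-κB subunits and inhibitors, 3 were lower and 5 higher (median difference 0.11). Nfkbia, the inhibitor IκBα that NF-κB itself induces, differed by 0.09.

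Of 26 genes that TNF induces in many cell types, 19 were lower and 7 higher, with a median difference of -0.15, and Mmp9 and 1 spot of Il1b passed an unadjusted p of 0.05 in opposite directions. The background was the same 670 lower and 465 higher of 19322 genes. Mmp9, a matrix metalloproteinase of leukocytes, was -1.86, -1.88, -0.92 and -0.86 in +/- and -0.90, -0.02, -0.58 and -0.26 in SDHD-ESR at 1 of its 4 spots (difference 0.94, adjusted p = 0.953 from limma). Both groups were below the pool. Il1b, the interleukin 1β of macrophages, gave a difference of -1.52 at 1 of its 10 spots (adjusted p = 0.953 from limma) and of -0.51 as the median of its spots. Among 7 measured superfamily genes with other symbols, Cd27, a costimulatory receptor of lymphocytes, was higher without overlap at 1 of its 2 spots (difference 1.18, adjusted p = 0.953 from limma, shifted line, 0.70 when moved back). This was its spot with the smaller p, and as the median of its spots Cd27 differed by 0.61. By gene medians, 0 of these genes were higher without overlap. Over all spots with a value on all arrays, 0.965% were higher without overlap.

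Markers of leukocytes had lower medians in SDHD-ESR than in +/-, and their part in the values of the members was not tested. The mean of SDHD-ESR was below that of +/- for all 15 pan-leukocyte markers, with a median difference of -0.56 and array medians of -0.34 to 0.26 in +/- and -0.68 to -0.21 in SDHD-ESR. Of 18 macrophage markers 17 were lower (median difference -0.57, array medians of -0.10 to 0.34 and of -0.69 to -0.19). No marker passed an adjusted p of 0.05 in limma, while 7 of 15 pan-leukocyte and 10 of 18 macrophage markers passed an unadjusted p of 0.05, all lower. Of all 19322 genes, 670 passed as lower and 465 as higher. All 10 T cell markers were lower, with a median of -0.09, and 6 of 9 B cell markers, with a median of -0.32. The medians of connective tissue (-0.61, and -0.40 with lines moved back), endothelium (-0.26) and Schwann and sustentacular glia (-0.30, 5 of 7 lower) were negative as well. Adipose tissue had a median of -1.0, with 0.37 on slide 1 and -2.33 on slide 2, while the medians of the adrenal cortex (0.05) and of chromaffin cells (-0.11) were near that of all genes (-0.05). The cortex median was 0.002 with lines moved back, which took SDHD-ESR 1 from 0.29 to -0.001. On the other arrays the cortex genes had medians of -0.013 to 0.052, where all genes had -0.18 to 0.36. Whether these markers could show a change was not tested, so their medians do not show that either cell type was unchanged. The 34 members had a median difference of -0.10, with 21 lower and 13 higher, and of 0.21 on slide 1 and -0.30 on slide 2, where all genes gave 0.22 and -0.33.

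**Figure D5:**
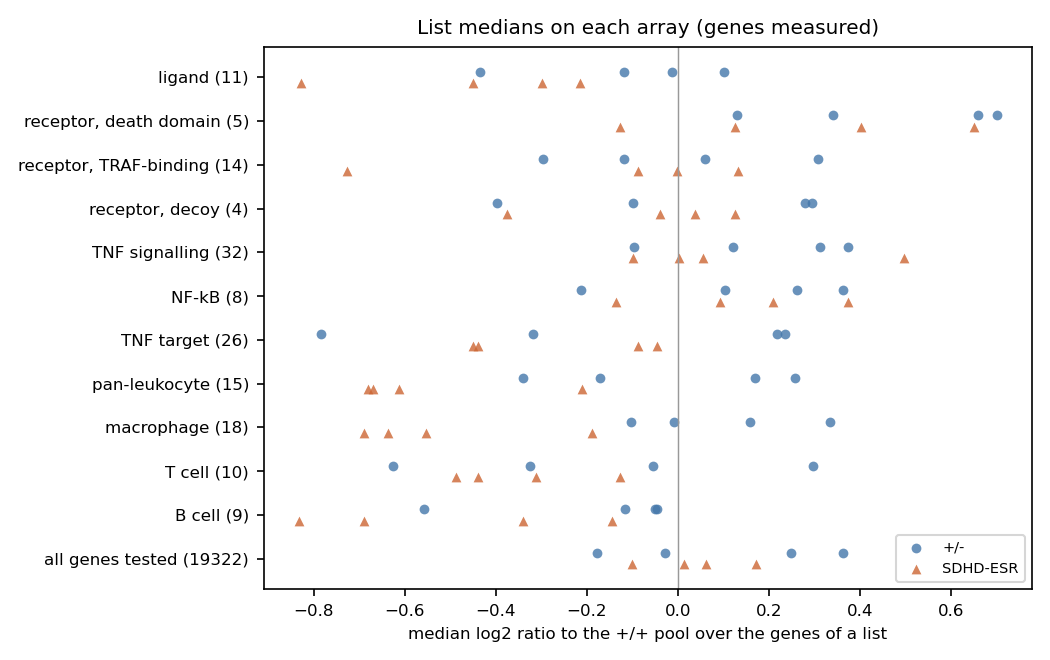
Median log2 ratio to the +/+ pool over the genes of each list, on each of the 4 +/- (circles) and 4 SDHD-ESR (triangles) arrays, with the number of measured genes in brackets. For pan-leukocyte markers 3, and for macrophage markers all 4, of the SDHD-ESR medians lie below every +/- median, while the 4 classes of TNF superfamily genes and their signaling genes overlap between the groups.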

How the data were processed

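Adrenal medulla RNA was measured on 8 two-color Agilent mouse arrays. The authors deposited 1 log ratio per spot and array (45220 spots). On background and dye correction, nothing is given in the sources used here. Base 2 was assumed: of 2937 deposited log ratios between 3.5 and 4.5 in size, 35.3% are the log2 of a whole number or of a whole number divided by 2 (tolerance 0.001), against 0.136% for natural and 0.647% for decimal logarithms. Values carry no names, and spots were placed through the geometry of the grid, with the sign turned. Spots of the 387 accessions with 10 or more spots had a median SD of 0.206 within copies, and 0.635 after names were shuffled. Whole numbers, 9.54% to 15.6% of an array, were taken to stand for missing ratios and were left out, and 12194 spots have no gene symbol. Whether some whole numbers were real ratios was not tested. With those from -2 to 2 kept, Lta differed by 0.16 (0.01 without them). With 4 arrays a group, the number of arrays limits the precision. Where nothing else is said, arrays were used without centring.

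Spots with 3 or more values a group were fitted in limma 3.58.1 (R 4.3.3) with group means over all 8 arrays, and Benjamini-Hochberg adjustment ran over 28073 spots. Single genes were compared by an exact permutation test on the median of their tested spots per array. Each array is a separate pool of 2 mice. Python 3.11.15 (numpy 2.4.6, pandas 2.3.3) was used for the rest, and the fit was tested on simulated data. Members and gene lists were chosen with earlier results of these data known. Genes were named where their groups did not overlap, at an unadjusted p of 0.05, among the 5 at each end against the pool, or as main ligands and receptors whatever their values; Tnfsf15, Tnfrsf12a, Tnfrsf22, Tnfrsf23 and Nfkbia were added after their values were seen. Alternatives were centring, quantile normalization, other minimum numbers of values, slide or replicate number as a block, the t-test of the study's methods, robust variances, averaged spots, and other treatments of SDHD-ESR 1 and of whole numbers. Moving its lines back together with centring was chosen after seeing the data.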

Additional observations from a re-analysis of the deposited data

Results flagged for a closer look

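In 4 of 42 groups of 4 arrays examined over the 22 genes named by rule, 1 array lay beyond Dixon's 95% limit. The other measured members were not examined. Some of the 22 were named for their extreme means, so the chance rate of about 1 in 20 groups does not apply. Among the 4 was Tnfsf8 on SDHD-ESR 4 (-3.88, with the other SDHD-ESR arrays between -0.58 and -0.14). Another was Tnfrsf18 on +/- 2 (-1.15, with the other +/- arrays between -0.23 and -0.17). Tnfrsf11b on SDHD-ESR 1 (2.63) lay in a shifted line of that array and read -0.03 when moved back. Lta on SDHD-ESR 4 (-0.30, the median of its tested spots) lay above the other SDHD-ESR arrays (-0.95 to -0.86).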

How the results depend on the processing

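No member spot passed an adjusted p of 0.05 in SDHD-ESR minus +/- under any alternative run. Of 22 named genes, 11 kept the sign of their difference under all of them, Tnfrsf1a, Tnfsf10 and Tnfrsf21 among these. Tnfrsf1a and Tnfrsf21 reached an exact p of 0.0286 under centring, quantile normalization and centring with lines moved back, and Tnfsf10 without SDHD-ESR 2 (-1.07). Outside the 22, Tnfsf12 reached the same exact p under centring with lines moved back (-0.28). Reversed were Ltbr (0.0363 centred, 0.0025 quantile, 0.0354 moved back and centred), Tnf (-0.0135 with lines moved back or with aligned lines only), Tnfrsf9 (-0.13 with values on all 8 arrays), and Tnfrsf11b and Tnfrsf19 with lines moved back (-0.37 and 0.14), aligned lines only (-0.40 and 0.10) and moved back with centring (-0.32 and 0.19). The cause was not tested.

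Member spots at an unadjusted p of 0.05 in SDHD-ESR minus +/- numbered 2 as reported, 12 with centring, 10 with quantile normalization, 4 with values on all 8 arrays, 1 with at least 2 values a group, 1 with robust variances, 5 with lines moved back and 14 with both that and centring. Spots of Tnfrsf1a made up 8 of the 12 and 9 of the 14. Over all tested spots, 2.80% were lower and 1.81% higher as reported, and 5.95% passed with centring and 5.29% with lines moved back. For the other settings no share over all spots is given here, so their counts are no result about the family. Member spots against the pool (0 at an adjusted p of 0.05) became 7, 8, 1 and 13 with centring, quantile normalization, lines moved back and moved back with centring. Over all spots, SDHD-ESR minus +/- gave 1 call with centring and 1 with lines moved back and centring. SDHD-ESR against the pool gave 12 calls, which became 232 with centring, 455 with quantile normalization, 77 with lines moved back, 1460 with both moved back and centred, 3 with averaged spots, and 1 each with at least 2 values a group, the slide as a block and the t-test, and +/- against the pool gave 609 with quantile normalization. With the replicate number as a block, 1 member spot passed an unadjusted p of 0.05 and 1 spot passed against the pool in SDHD-ESR. Same-numbered arrays correlated at 0.08, 0.12, -0.00 and 0.03 in their deviations, and only some arrays correlated best with their own number. These correlations used SDHD-ESR 1 as deposited, with its shifted and mixed lines, and cannot decide whether the numbers pair the arrays.

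Leaving out 1 array at a time, the 2 member spots became 5 without +/- 1, 1 without +/- 2, 0 without +/- 3, 7 without +/- 4, 1 without SDHD-ESR 1, 6 without SDHD-ESR 2, 3 without SDHD-ESR 3 and 2 without SDHD-ESR 4. The shares over all spots in these fits are not given here. The 12 spots of SDHD-ESR against the pool became 0 to 2, with 0 without any 1 of the SDHD-ESR arrays, and +/- against the pool 0 to 1. SDHD-ESR minus +/- stayed at 0, as did the members against the pool. The median of the members' fitted differences was -0.11, and -0.30 to -0.01 over these fits. Without 1 array, Fas was -0.28 to 0.0423, Lta -0.21 to 0.26, Ltbr -0.14 to 0.0487, Tnf -0.11 to 0.18, Tnfrsf10b -0.0059 to 0.35, Tnfrsf11b -0.40 to 0.60, Tnfrsf19 -0.44 to 0.16, Tnfrsf26 -0.0106 to 1.00, Tnfsf13b -0.36 to 0.0744 and Tnfsf8 -0.78 to 0.47. The genes that kept their sign were Cd40 -0.80 to -0.20, Ltb -0.90 to -0.26, Tnfrsf13c 0.35 to 0.71, Tnfrsf18 -1.47 to -0.36, Tnfrsf1a 0.28 to 0.53, Tnfrsf1b -0.94 to -0.30, Tnfrsf21 -0.81 to -0.44, Tnfrsf25 -0.58 to -0.35, Tnfrsf8 0.29 to 0.78, Tnfsf10 -1.07 to -0.62 and Tnfsf9 -1.39 to -0.09, and Tnfrsf9 was 0.09 to 0.25 (0.09 without +/- 1).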
